A study of Mus musculus with 2 samples.

Results

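The cells described here are the Siglech-positive or H2-Aa-positive cells of Kit+ mouse bone marrow, 63 of the 14068 cells kept after filtering, with 30 from the control library and 33 from the library labelled Utx-deleted. They were chosen by their own transcripts. A cell was taken when it held at least 3 unique molecular identifiers (UMIs, which count messenger RNA molecules) of Siglech or at least 5 of H2-Aa, under 1% of its UMIs from 6 neutrophil granule and S100 genes (Ltf, Camp, Ngp, S100a8, S100a9 and Lcn2), no Cd79a UMI and at most 1 C1qa UMI. Cells that met the Siglech threshold are called Siglech cells, and the rest H2-Aa cells. The control library held 7 Siglech cells and 23 H2-Aa cells, and the library labelled Utx-deleted held 0 and 33. Because these thresholds chose the cells, differences between Siglech cells and H2-Aa cells are given as a description, with no test.

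Dendritic cells sense microbes and present antigen to T cells. The plasmacytoid type carries the surface receptor Siglec-H in the mouse, depends on the E protein TCF4 and is known for secreting type I interferon, and it shares early genes such as Dntt with lymphoid progenitors. Conventional dendritic cells load peptides on MHC class II molecules, of which H2-Aa and H2-Ab1 encode the I-A chains, H2-Eb1 an I-E chain and Cd74 the invariant chain that chaperones them. The type 1 conventional cell, which needs IRF8 and BATF3, carries XCR1 and CLEC9A and presents antigen from dead cells to CD8 T cells, and the type 2 cell carries genes such as Cd209a and Clec10a.

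Both sources of cells were CD45.2+ Kit+ bone marrow, taken 10 weeks after transplantation, stained with barcoded antibodies and run on 10x Genomics 3′ chemistry, version 3.1. The group labels are control and Utx deleted. Utx is the histone demethylase gene Kdm6a. The allele, what drove its deletion, the number of animals and the cells remaining from the host are not given in the sources used here. With 1 library per label, library and genotype cannot be told apart, no test was possible, and every interval below is a 95% interval for counting error only. "The Utx-labelled library" stands for the library labelled Utx-deleted.

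The promoters of H2-Aa, H2-Eb1 and Siglech are shown because H2-Aa and Siglech chose the cells and H2-Eb1 was, like H2-Aa, high in H2-Aa cells and at 0 in Siglech cells. Each line gives the 150 bases before the RefSeq transcription start, 5′ to 3′ on the gene's strand, in the RefSeq table for GRCm38.p6. In H2-Aa and H2-Eb1 the capitals mark CTGATTGG, the core of the Y box of MHC class II promoters, 51 and 62 bases before the start. In Siglech they mark CACCTG, an E-box of the kind that E proteins bind, 20 bases before the start.
H2-Aa chr17:34287824-34287973 (minus strand): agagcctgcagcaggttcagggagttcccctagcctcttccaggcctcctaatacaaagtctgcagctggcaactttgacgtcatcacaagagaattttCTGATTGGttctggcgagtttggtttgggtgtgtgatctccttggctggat
H2-Eb1 chr17:34305717-34305866 (plus strand): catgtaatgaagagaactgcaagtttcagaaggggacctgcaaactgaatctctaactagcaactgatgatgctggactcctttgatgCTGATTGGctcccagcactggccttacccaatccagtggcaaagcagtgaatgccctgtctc
Siglech chr7:55768034-55768183 (plus strand): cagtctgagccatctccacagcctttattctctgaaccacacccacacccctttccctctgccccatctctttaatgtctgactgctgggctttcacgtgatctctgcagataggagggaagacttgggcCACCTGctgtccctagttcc
Searched on both strands (the reverse complements are CCAATCAG and CAGGTG), CTGATTGG was in 3.16% of 32851 RefSeq promoters of this length and CACCTG in 10.6%. The Y box core was also in the windows of H2-Eb2 and H2-Oa, and these letters were not in those of H2-DMa, H2-DMb1, H2-DMb2 and H2-Ob. CACCTG was also in 1 window of the class II gene H2-DMa. It was not in those of the plasmacytoid genes Bst2 and Runx2, nor in those of Xcr1, Clec9a and Cd209a. A match of letters describes the window and is not a binding site.

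The libraries held 7827 and 7883 barcodes with 122130256 and 129736034 gene UMIs, control first, and 7098 and 6970 barcodes were kept with medians of 12450.5 and 11363 UMIs. Kept cells carried hashtag 1 (3375 and 3256 cells), hashtag 2 (3674 in each) or no clear hashtag (49 and 40), and the labels do not say what a hashtag marks. The libraries shared 17 barcodes, none of them a member in both. In kept non-member cells with under 1% neutrophil transcripts, called the other low-neutrophil cells below, Kdm6a stood at 136 CPM (UMIs of the gene for every 1e+06 gene UMIs) among control cells and at 123 CPM in the Utx-labelled library. Where the deletion lies is not given in the sources used here, so a 3′ tag count does not check that label.

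Of the kept barcodes past either threshold, 43 in each library, the neutrophil limit took 3 and 3, Cd79a a further 10 and 7, and C1qa none. The share of members was 0.423% in the control library (30 of 7098, interval 0.285 to 0.603%), beside 0.473% in the Utx-labelled library (33 of 6970, 0.326 to 0.664%). The difference of 0.0508 percentage points had an interval of -0.175 to 0.280 points, which covers counting error and not variation between libraries. Siglech cells were 0.0986% of control cells (7 of 7098, 0.0397 to 0.203%) and 0 of 6970 in the Utx-labelled library, which allows a share of up to 0.0430% by 3 counts of the total (Clopper-Pearson upper limit 0.0529%).

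Few cells that passed the other conditions lay near either threshold. For Siglech, 2 control cells held 3 UMIs, just inside, and 2 held 2, just outside. For H2-Aa, 5 such control cells and 2 such cells of the Utx-labelled library held 3 UMIs, and 1 of the latter held 4. Among all kept cells, 5 in each library held 3 UMIs and 4 of the Utx-labelled library held 4. The lowest members held 8 in the control library (2 cells) and 5 in the Utx-labelled library (2 cells). In most H2-Aa cells the count was far above the threshold, up to 177 and 236 UMIs. As a measure of transcripts free in solution, among cells with at least 5% neutrophil transcripts (medians 9903 and 9712.5 UMIs), Siglech had a UMI in 1 of 5227 control cells (0.0191%) and 0 of 5308 others, and H2-Aa in 0.593% and 0.509%. That 1 control cell held 7 Siglech UMIs, 63 of Tcf4 and 44 of Runx2 at 14.6% neutrophil transcripts, and was left out of the members by the neutrophil limit.

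**Figure D1:**
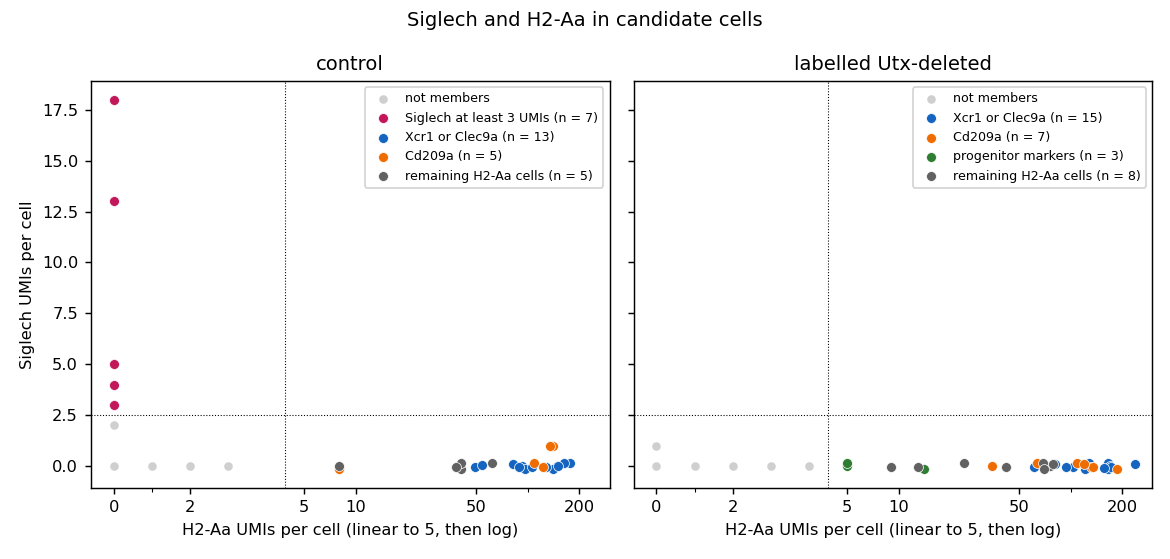
Siglech UMIs (vertical axis) against H2-Aa UMIs (horizontal axis) in every cell that passed the other conditions, 1 panel per library, with dotted lines at the thresholds and grey points for cells that were not taken. The 7 Siglech cells of the control library lie at 0 H2-Aa UMIs, and the Utx-labelled library has no point above 1 Siglech UMI.

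Siglech itself was counted 18, 13, 5, 5, 4, 3 and 3 times in the 7 Siglech cells, which had 19027 to 28961 gene UMIs each. Over every barcode of the series, kept or not, Siglech had 64 UMIs in 12 control barcodes and 1 UMI in 1 barcode of the Utx-labelled library. Dropping the threshold and the cell filters therefore added no Siglech-rich barcode to the Utx-labelled library. By hashtag, 1 Siglech cell was among the 15 control members of hashtag 1 and 6 were among the 14 of hashtag 2, beside 0 of 14 and 0 of 19 in the Utx-labelled library, so most of the difference rests on hashtag 2 of the control library. Among members the share was 23.3% (interval 9.93 to 42.3%) against 0 of 33 (up to 9.09% by 3 counts, Clopper-Pearson upper limit 10.6%), a difference of -23.3 points (-40.9 to -7.78), which was -6.67 points in hashtag 1 alone and -42.9 in hashtag 2 alone.

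All but 3 of the 17 listed plasmacytoid genes had a UMI in the Siglech cells. Tcf4, the E protein gene that marks this lineage, had 17 to 84 UMIs in each of them (1829 CPM in all) and 168 CPM in the control H2-Aa cells, a log2 ratio of 3.43 (interval 3.05 to 3.87). Runx2, a transcription factor of plasmacytoid cells, had 30 to 87 UMIs per cell and a log2 ratio of 3.78 (3.41 to 4.21). Summed over the 16 listed genes other than Siglech, the Siglech cells had 85 to 359 UMIs (median 196), against 2 to 46 (median 14) in control H2-Aa cells and 2 to 143 (median 11) in those of the Utx-labelled library. The 143 belong to 1 Cd209a cell of that library, with 80 UMIs of Tcf4 and none of Siglech, which lies within the range of the Siglech cells. Cox6a2, a cytochrome oxidase subunit gene, had 3 to 14 UMIs in each Siglech cell and 0 in every control H2-Aa cell, at least 52.4-fold higher when set against 3 counts.

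Further members of the list were weaker or missing. Bst2, which encodes the tetherin antigen used to sort these cells, was counted 4 to 47 times per cell and was 1.76 higher on the log2 scale (1.36 to 2.17). Bcl11a, a lymphoid and plasmacytoid transcription factor gene, was 1.39 higher and Lair1, an inhibitory collagen receptor gene, 3.24 higher. Irf7, the main inducer of type I interferon genes, Klk1 and the DNA sensor gene Tlr9 were at 0 in all 7 cells, Tlr7 had 5 UMIs, Spib had 2, and Ccr9, the gut-homing receptor gene of mature plasmacytoid cells, had 1 UMI. Irf8, needed by both lineages, stood at 1646 CPM in Siglech cells and 1706 CPM in H2-Aa cells (log2 ratio -0.05, interval -0.26 to 0.15).

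Of the 16 listed plasmacytoid genes that the rule did not use, 8 reached the 20 UMIs needed for a ratio, and 7 were at least 2-fold higher in Siglech cells and 1 (Ccr9) lower. Over all 4916 genes tested, 15% were higher (737) and 12.5% lower (616), with a median log2 ratio of 0.15. With TMM factors, which scale on a trimmed average of the ratios, all ratios shifted by -0.27, the median became -0.12 and the counts 501 higher and 855 lower, so the share of higher genes among those called went from 54.5% to 36.9%. Some listed genes reached the minimum through the Siglech cells alone, and the counts only describe the contrast by which the cells were split.

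Among the 10 genes furthest above the H2-Aa cells by the naming rule were the lymphoid genes Ly6d, Dntt and Il7r. Ly6d, a surface protein gene of early B lymphoid and plasmacytoid progenitors, had 138, 28, 86, 30, 65, 0 and 17 UMIs in the 7 cells, in order of falling Siglech count, and 0 in the control H2-Aa cells (at least 261-fold higher). Dntt, the terminal transferase that adds bases at immunoglobulin and T cell receptor gene joints, had 1, 7, 6, 77, 27, 21 and 9 (at least 106-fold). The cell with the most Siglech thus had the least Dntt, and the cell without Ly6d still had 21 Dntt UMIs. Il7r, the receptor gene for the lymphoid growth factor interleukin 7, had 0 to 21 UMIs per cell (45 in all, at least 32.3-fold), and Blnk, a B cell adaptor gene, had 31 in all (at least 22.3-fold).

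The others of the 10, beside Cox6a2, were Cmah, which hydroxylates sialic acid (120 UMIs, at least 86.2-fold), Arpp21 (55 UMIs, at least 39.5-fold), Arhgap24, a Rac-directed GTPase activator (40 UMIs, at least 28.7-fold), 2610307P16Rik (log2 ratio 6.44), Mctp2 (6.34) and Prkca, a protein kinase C gene (6.28). Each of the first 3 was at 0 in the control H2-Aa cells. Of the 16 lymphoid genes shared with B progenitors, 6 had enough UMIs for a ratio, several through the Siglech cells alone, so that they came out higher there follows from the minimum. Sox4, a progenitor transcription factor gene, was 4.54 higher on the log2 scale. Rag1 was at 0 in all members of the control library.

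Markers of committed B cells were mostly at 0. In the B cell list Cd79a (by rule), Ebf1, Pax5, Vpreb3, Ms4a1 and Igkc had no UMI in the Siglech cells, and the summed list came to 7 to 20 UMIs per cell. Nearly all of it was Ighm, the mu heavy chain locus, with 6 to 19 UMIs per cell and a log2 ratio of 2.01 (1.51 to 2.54).

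Genes of the neutrophil lineage moved with 1 cell. Mpo, the myeloperoxidase gene of granulocyte progenitors, was at 128 UMIs in the Siglech cell that also had 27 of Elane and 30 of Prtn3, and at 0 to 5 in the other 6 cells. The log2 ratio for Mpo of 3.79 therefore describes that cell. The summed neutrophil list was 22 to 218 UMIs per Siglech cell (median 33) and 9 to 91 (median 25) per control H2-Aa cell, and its part in other differences was not tested.

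Most MHC class II genes were close to absent from Siglech cells, which do not match the markers H2-Aa and Cd74 given for these cells as a whole. H2-Aa and Cd74 had no UMI in any of the 7 cells, and H2-Ab1 had 1 UMI in 2 of them. In the control H2-Aa cells Cd74 had 3355 UMIs (9219 CPM), so Siglech cells were at least 519-fold lower, and H2-Eb1 had 1567 (at least 242-fold lower). Class II genes reached the minimum of 20 UMIs mostly through the H2-Aa cells, so no count is given for the list. The master regulator gene Ciita stood lower, with 1 UMI against 136 (-4.99). H2-DMa was also lower (-2.51) but kept 12 UMIs in 5 of the 7 cells, and H2-Eb2 had no UMI in any member. These genes include those linked to the rule.

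Conventional dendritic genes were partly missing. Of the 5 markers listed for any conventional dendritic cell, Zbtb46 and Dpp4 were lower in Siglech cells, Dpp4 with 23 UMIs against 190 (-1.89), while Flt3 (63 UMIs in 7 of 7 cells, 0.43), Kmo (22 UMIs in 6 cells, -0.15) and Itgax (6 UMIs, -0.67) were not past 2-fold. Zbtb46, the transcription factor gene that marks conventional dendritic cells, had 0 UMIs against 76 (at least 11.8-fold lower), Xcr1 0 against 67 (at least 10.4-fold), and Batf3 0 against 63 (at least 9.75-fold). Id2, the inhibitor of E proteins that opposes TCF4, had 1 against 481 (-6.81). The remaining lowest genes by the naming rule included Plbd1 (0 against 426), Pid1 (0 against 336), the lysosomal amidase gene Naaa (0 against 275), the monocyte chemokine receptor gene Ccr2 (0 against 237), Lgals3 and Ifi205 (0 against 199 each).

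Broader lists were mixed in the same contrast, in which 15% of all tested genes were higher and 12.5% lower. Genes high in 1 subset could reach the minimum through it alone, so no count is given for dendritic transcription factors or cell cycle genes. Among the former, Zeb2, Myb and Ikzf1 were higher, and Klf4 and the myeloid factor gene Spi1 (-2.11) lower. Under TMM, Tcf3 and Runx1 were no longer past 2-fold. Replication genes such as Mcm5 (1.76), Rrm2 (1.89) and Pcna (1.32) were higher, while Mki67 stood at 0.49 and Top2a at 0.99. Under TMM, Mcm2 and Mcm3 fell below 2-fold as well. Of 12 MHC class I genes 3 were lower (median -0.62), or 5 under TMM, of 13 secretory genes 1 was higher and 1 lower, and of 6 genes of the UTX, MLL3 and MLL4 complex none was called (median 0.083), although under TMM 1 was lower and Kdm6a and Ash2l changed sign.

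**Figure D2:**
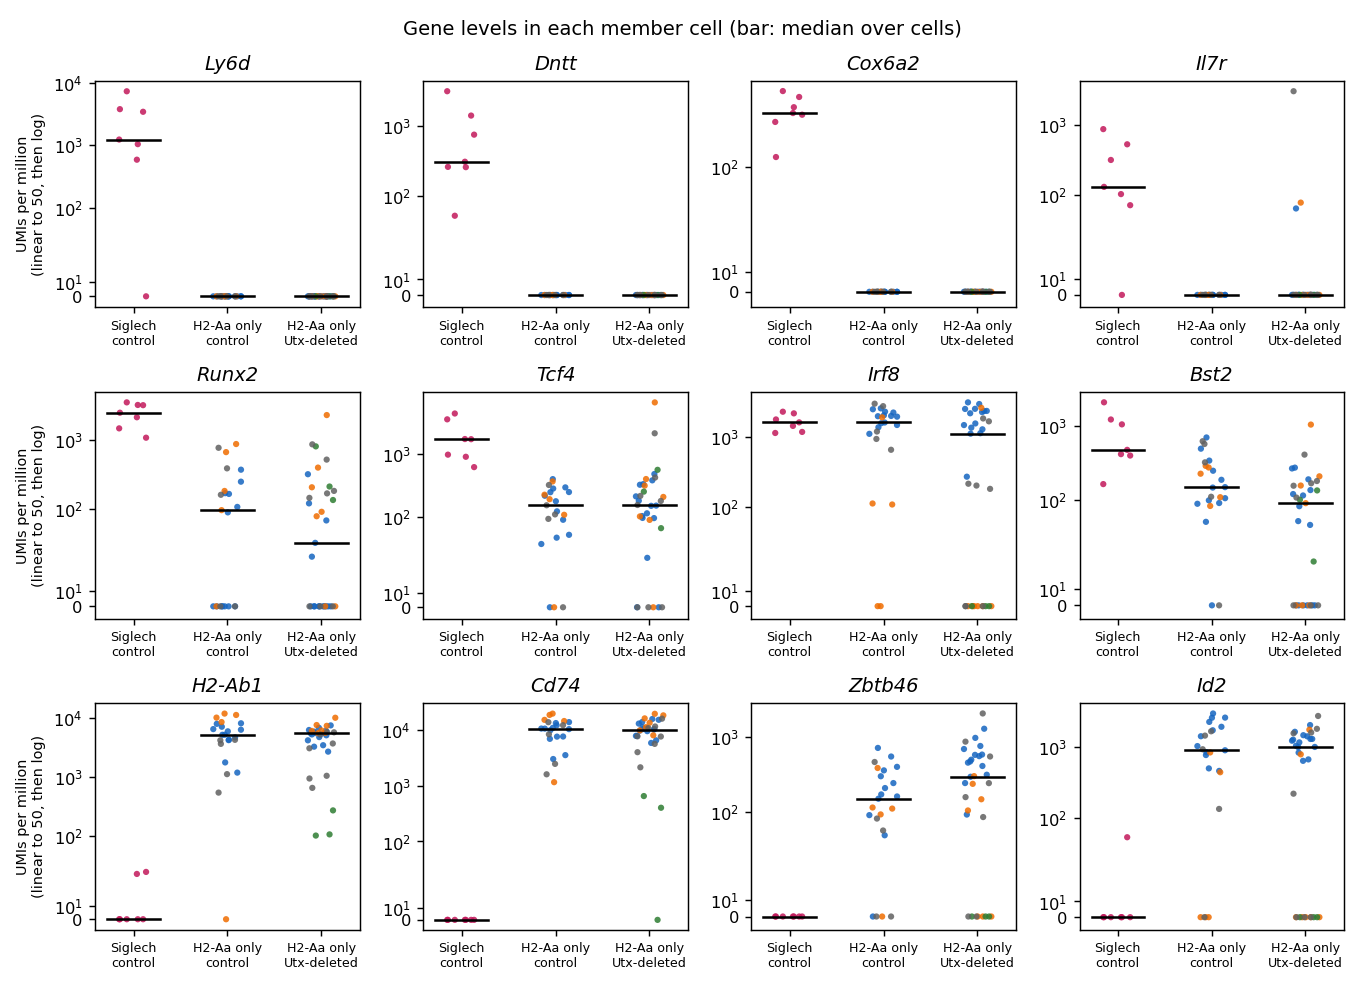
CPM per cell of 12 genes in the control Siglech cells (magenta), the control H2-Aa cells and the H2-Aa cells of the Utx-labelled library, with a bar at each median and H2-Aa cells coloured by Xcr1 or Clec9a (blue), Cd209a (orange), progenitor markers (green) or none of these (grey). Tcf4 and Runx2 are high in all 7 Siglech cells, and Cd74, H2-Ab1 and Zbtb46 are at or near 0 there.

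The antibody tags, which took no part in the split, also differed. B220, the CD45R isoform of B and plasmacytoid cells, gave 13 to 159 tag UMIs per Siglech cell (median 61) and 2 to 150 per control H2-Aa cell (median 11), a median of 5.52% against 0.706% of the non-hashtag tag UMIs. CD34, a progenitor antigen, had medians of 45 and 8, and CD127, the protein product of Il7r, 15 and 4. CD11b was lower at 2 to 33 (median 12) against 10 to 831 (median 72), and the Fc receptor tag CD16_32 had medians of 13 and 89. The ranges overlapped for all 5 tags. Of 13 tags 6 differed by at least 2-fold in median share.

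The bone marrow was taken as Kit+, and the CD117 tag reads that protein. Its median was 17 UMIs in Siglech cells (range 2 to 29) and 26 in control H2-Aa cells (8 to 105), against 169.5 in the other low-neutrophil control cells. Kit transcripts were found in 1 of the 7 Siglech cells (4 UMIs) and in 21 of 23 control H2-Aa cells (57 UMIs). By tag median and by transcript, Siglech cells stood below H2-Aa cells, with overlapping tag ranges.

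**Figure D3:**
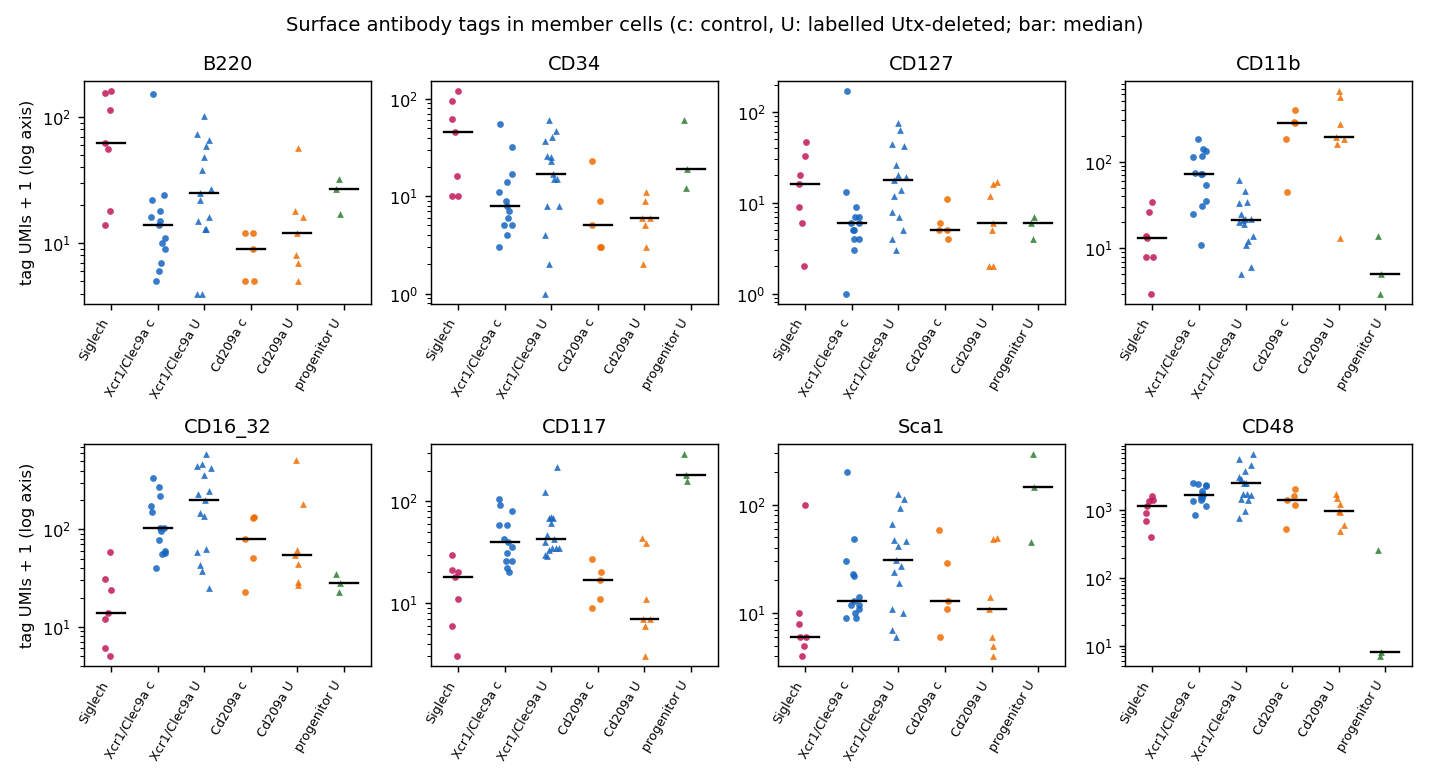
Tag UMIs per cell (plus 1, log axis) for B220, CD34, CD127, CD11b, CD16_32, CD117, Sca1 and CD48, with a bar at each median and colours as in the plot of genes by subset. Siglech cells, Xcr1 or Clec9a cells, Cd209a cells and progenitor-marker cells are drawn, and the remaining H2-Aa cells are not. Before 1 is added, control medians of B220 and CD34 are 61 and 45 in Siglech cells, 13 and 7 in Xcr1 or Clec9a cells and 8 and 4 in Cd209a cells. Those of CD11b are 12, 72 and 281 in the same order.

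Cells like the Siglech cells were looked for without using Siglech, by 6 genes chosen after their values were seen (Ly6d, Cox6a2, Irf8, Runx2, Bst2 and Tcf4, each at 2 or more UMIs). In the control library 13 cells had at least 5 of the 6, of which 7 were the Siglech cells, and in the Utx-labelled library 1 cell did. All 6 were met by 7 control cells, 6 of them Siglech cells, and by 0 cells of the other library. At least 4 of the 6 were met by 305 and 214 cells and at least 3 by 844 and 753. Summed over kept cells, Cox6a2 had 150 control UMIs and 16 in the Utx-labelled library, and Dntt 2624 and 269, while Ly6d had 849 and 893. Non-member cells with at least 3 Dntt UMIs and no Cd79a, which are candidates for lymphoid progenitors by Dntt alone, numbered 45 and 4. Their part in the difference in Siglech cells was not tested.

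The H2-Aa cells were divided by thresholds set after their values were seen. Cells with at least 5 Xcr1 plus Clec9a UMIs, more than of Cd209a, numbered 13 in the control library and 15 in the Utx-labelled library (0.183% and 0.215% of kept cells). Cells with at least 4 Cd209a UMIs numbered 5 and 7. Cells whose 8 stem or early progenitor markers summed to at least 50 UMIs numbered 0 and 3, and 5 and 8 cells met none of these.

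The 3 progenitor-marker cells, all of hashtag 2, go against the dendritic label. Zbtb46, Flt3, Itgax, Kmo and Dpp4, the 5 markers listed for any conventional dendritic cell, were at 0 in all 3, and H2-Aa was at 5, 5 and 14 UMIs. They held 74 UMIs of Mecom, 63 of Meis1 and 37 of Hlf, all transcription factor genes of stem cells, and 286 of Angpt1, a ligand gene of the receptor TIE2. Their CD117 tag was at 183, 293 and 158 UMIs, above the Siglech cells and within the range of the other low-neutrophil cells. Genes picked by the naming rule between libraries in H2-Aa cells are given with and without these cells.

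Among the cells that met none of the conditions, 2 control cells and 2 of the Utx-labelled library had 83 to 222 UMIs of the 8-gene monocyte list. In the Utx-labelled library 1 further cell had 24 UMIs of the T, NK or innate lymphoid list, 19 of them Il7r, and 1 held 1921 UMIs in all, the fewest of any member. These cells stayed among the H2-Aa cells in the pooled comparison.

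Among transcription factor and antigen-handling genes, some were higher in Xcr1 or Clec9a cells than in Cd209a cells and some lower. They are named one by one, with no count over a list. Irf8 was higher in Xcr1 or Clec9a cells, with a log2 ratio of 1.91 in the control library and 2.93 in the Utx-labelled library, as were Id2 (2.47 and 1.93), Naaa (267 UMIs against 2, and 497 against 7) and Wdfy4, needed for cross-presentation (2.88 and 2.69). Zeb2, a transcription factor gene that restrains the type 1 fate, had 0 UMIs against 41 in control Cd209a cells (at least 66.9-fold lower) and 1 against 167 in the other library (-8.35). Runx2 (-1.97 and -3.62), Klf4 (-1.19 and -1.78) and the cathepsin S gene Ctss (-1.75 and -1.39), which trims the invariant chain, were lower in Xcr1 or Clec9a cells too.

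Of all tested genes, 13.7% and 11.4% were higher in Xcr1 or Clec9a cells (412 of 3002 and 364 of 3204), control first. Genes lower there were 8.96% and 11.5% (269 and 368). Xcr1 or Clec9a cells held more gene UMIs in all than Cd209a cells (251103 against 51287, and 281547 against 72457). Genes such as Naaa could therefore reach the minimum through them alone. Since Xcr1 and Clec9a also chose the cells, no count is given for the type 1 or cell cycle lists. The immunoproteasome subunit genes Psmb9 (1.43 and 1.57) and Psmb8 were higher. Summed MHC class II transcripts stood at 25217 and 30723 CPM in Xcr1 or Clec9a cells and at 43422 and 43681 CPM in Cd209a cells.

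**Figure D4:**
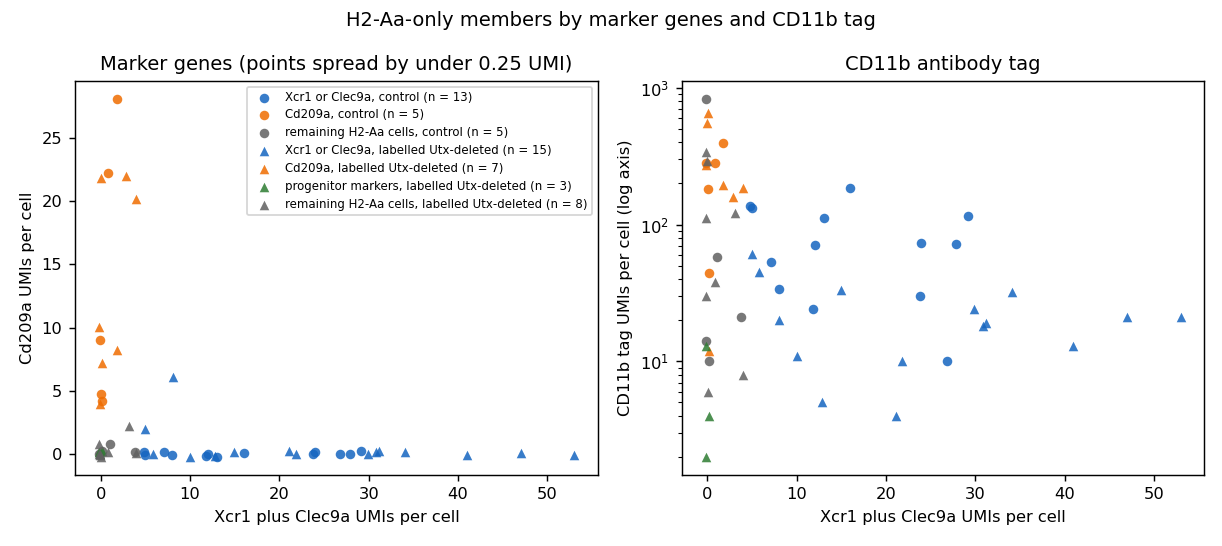
Xcr1 plus Clec9a UMIs against Cd209a UMIs (left) and against CD11b tag UMIs (right) in each H2-Aa cell, with circles for the control library, triangles for the Utx-labelled library and colours as in the plot of genes by subset. Cd209a cells have CD11b tag medians of 281 and 194, and Xcr1 or Clec9a cells of 72 and 20, control first.

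The CD11b tag, which took no part in the thresholds, had a higher median in Cd209a cells than in Xcr1 or Clec9a cells of each library. In the control library it gave 44 to 394 UMIs in Cd209a cells (median 281, 14.8% of tag UMIs) and 10 to 184 in Xcr1 or Clec9a cells (median 72, 3.66%). In the Utx-labelled library it gave 12 to 654 (median 194, 16.1%) and 4 to 61 (median 20, 0.537%). The ranges overlapped in both libraries. Itgam, the gene of CD11b, had 2 and 0 UMIs in Xcr1 or Clec9a cells, too few for a ratio, and the CD11b median of the other low-neutrophil cells was 10 and 6.

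Between libraries, H2-Aa cells differed in P3h2, Ube2e2 and H2-DMb2, which were higher in the Utx-labelled library. Lower there were the histone genes named below. Of 3291 genes tested, 2.86% (94) were at least 2-fold higher in the Utx-labelled library and 3.34% (110) lower, with a median log2 ratio of -0.067. Cell cycle genes high in the control cells could reach the minimum there alone, so no count is given for that list. TMM scaling shifted ratios by 0.07 and gave 114 higher and 88 lower, or 56.4% higher among those called in place of 46.1%. The highest by the naming rule were Angpt1 (2 and 309 UMIs, log2 ratio 6.23), the ubiquitin-conjugating enzyme gene Ube2e2 (2.97), P3h2, a collagen prolyl hydroxylase gene (2.49), Plxdc2 (2.18) and the inhibitory receptor gene Cd200r1 (2.10). Of the 309 Angpt1 UMIs, 286 lay in the 3 progenitor-marker cells, and 22 of the remaining 23 in 1 Cd209a cell, which gave a ratio of 2.76 under the minimum of 50 UMIs. Plxdc2 had 21 of its 49 UMIs in the progenitor-marker cells, and without them was at 1.62 from 7 and 28 UMIs, also under it. Cd200r1 had 25 of its 52 UMIs in 1 cell, without which the ratio was 1.21 from 8 and 27 UMIs, under that minimum (an alternative chosen after the data were seen). Without the progenitor-marker cells Cd200r1 was at 2.26, Ube2e2 was at 2.96 (9 of 30 cells) and P3h2 at 2.72 (16 of 30 cells).

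The lowest were 4 histone genes and a mitotic kinesin gene. Hist1h1b had 342 and 47 UMIs, control first (-3.30), Hist1h2ae 63 and 15 (-2.46), Hist1h1e 115 and 32 (-2.28), Hist1h4d 56 and 16 (-2.21) and Kif15 44 and 13 (-2.15). Most control Hist1h1b UMIs lay in 4 Xcr1 or Clec9a cells (48, 136, 95 and 51), and the median control H2-Aa cell had 0. The same cells held most control UMIs of the other histone genes named and of Kif15. Histone genes of these clusters have near-identical copies among which reads can be split, and their transcripts mostly lack the poly(A) tail that 3′ libraries capture. Without the progenitor-marker cells these 5 ratios were -3.07 for Hist1h1b, -2.43 for Hist1h2ae, -2.19 for Hist1h1e, -2.07 for Hist1h4d and -2.14 for Kif15, and 87 genes were higher (2.9%) and 117 lower (3.9%) of 3003.

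MHC class II genes were close between libraries, with 1 of 9 higher (H2-DMb2 at 1.71), beside 2.86% of all tested genes, and a median of 0.36. Cd74 stood at 0.01, H2-Ab1 at -0.15 and H2-Eb1 at 0.30. Without the progenitor-marker cells H2-DMb2 was at 1.93, Cd74 at 0.23, H2-Ab1 at 0.06 and H2-Eb1 at 0.52, and again 1 of 9 was higher, beside 2.9% of all tested genes. Genes absent from the control H2-Aa cells included Mgl2, a lectin gene of type 2 cells (0 and 54 UMIs, in 4 cells, at least 13.1-fold higher, or at least 5.18-fold without the cell that held 33), and Mecom (0 and 74, in the progenitor-marker cells). Tcf4 was higher at 1.11 (61 and 183 UMIs), but 80 of the 183 lay in 1 cell, without which it stood at 0.32 and was not past 2-fold. Without the 3 progenitor-marker cells, which held 27, it was at 1.10. Kdm6a itself had 55 UMIs (151 CPM) in the control H2-Aa cells and 119 (237 CPM) in the others, a log2 ratio of 0.64 (0.18 to 1.14; 0.70 without the progenitor-marker cells), so it was not lower by 3′ counts.

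The Xcr1 or Clec9a cells, chosen by the same thresholds in each library, were also compared, 13 against 15. Their mix may differ between libraries, and its part in the ratios was not tested. Among kept cells, 8 in the control library and 13 in the Utx-labelled library held at least 2 Xcr1 UMIs. Of 1995 genes tested 3.26% (65) were higher and 4.66% (93) lower in the Utx-labelled library. P3h2 had 0 to 11 UMIs per control cell (median 1, found in 8 of 13) and 1 to 60 per cell of the Utx-labelled library (median 9, found in 15 of 15), a log2 ratio of 2.77 (2.28 to 3.38). Strip2, a gene of a phosphatase and kinase scaffold, had 0 to 3 (median 0) and 1 to 12 (median 5), a ratio of 2.21 (1.48 to 3.19). The ranges overlapped for both, with every cell of the Utx-labelled library positive.

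The next highest genes were less even over cells. Fkbp5, a glucocorticoid-induced chaperone gene, had 0 to 5 and 0 to 23 UMIs per cell (10 and 75 in all, 2.62). Cadm1, an adhesion molecule gene of type 1 cells, was found in 5 of 13 and 11 of 15 cells, with 0 to 31 and 0 to 114 UMIs (63 and 358 in all, 2.32). H2-DMb2, which encodes the chain of the peptide exchanger H2-DM that is shared in near-identical form with H2-DMb1, had 8 and 45 UMIs in 6 and 11 cells (2.19, interval 1.23 to 3.62).

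Other dendritic genes differed less in these cells. Zbtb46 was 1.18 higher (61 and 156 UMIs), the costimulatory ligand gene Cd86 1.27 higher and Ccr9 1.44 higher. Below 2-fold stood Xcr1 (0.64), Clec9a (0.63), Naaa (0.73) and Flt3 (0.73), of which the first 2 chose the cells. Of 9 MHC class II genes 3 were higher (H2-DMb2, H2-Oa at 1.16 and H2-Ob at 1.05), where 3.26% of all tested genes were. Without the cell with most of its UMIs H2-DMb2 was at 2.12 from 8 and 38 UMIs, under the minimum, and H2-Eb1 stood at 0.59, with 28 to 123 and 50 to 190 UMIs per cell.

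In other low-neutrophil cells, P3h2 (-0.11), Strip2 (0.15), Fkbp5 (0.31) and H2-DMb2 (-0.43) were within 2-fold between libraries and Cd86 was lower (-1.56). Over those cells 1.98% of 13503 genes were higher and 5.44% lower. The difference between the 2 kinds of cells was not tested.

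Cell cycle transcripts were lower in Xcr1 or Clec9a cells of the Utx-labelled library, and came from few cells. Mki67, a nuclear protein gene of dividing cells, was found in 5 of 13 and 4 of 15 cells, with at most 48 and 23 UMIs in a cell (120 and 45 in all, log2 ratio -1.56, interval -2.11 to -1.08). Top2a, the topoisomerase gene of S and G2 phase, stood at -1.85, Birc5 at -1.41 and the replication clamp gene Pcna at -1.40. Cell cycle genes high in the control cells could reach the minimum there alone, so no count is given for the list. Its summed transcripts came to 551 UMIs in control cells (2194 CPM, 0 to 189 per cell, median 8) and 257 in the others (913 CPM, 0 to 87, median 3).

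The named histone genes were lower too: Hist1h1b had 0 to 136 UMIs per control cell and 0 to 20 per cell of the other library (-3.11), Hist1h1e was at -2.69, Hist1h4d at -2.57 and Hist1h2ae at -2.44. These are largely the UMIs already counted over all H2-Aa cells, with 337 of the 342 control Hist1h1b UMIs in Xcr1 or Clec9a cells. Dctpp1, which degrades excess dCTP, was at -2.57. In the other low-neutrophil cells 0 of 16 cell cycle genes were past 2-fold (median -0.26), beside 1.98% of all tested genes higher and 5.44% lower. Whether the proportion of cycling cells or their transcript level differed cannot be told apart with 5 and 4 such cells.

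Of the interferon-stimulated list, 3 genes reached the minimum in these cells and 5 in all H2-Aa cells. Genes high in the control cells could reach it there alone, so no count is given for either. In the other low-neutrophil cells 7 of 14 were lower (5.44% of all tested genes). In Xcr1 or Clec9a cells Bst2 had 55 and 20 UMIs (-1.58, interval -2.44 to -0.86), found in 12 of 13 and 9 of 15 cells, and Ifitm3, which blocks virus entry, 55 and 15 (-1.97, interval -2.97 to -1.20). In the other low-neutrophil cells Bst2 stood at -0.19 and Ifitm3 at -1.25. Dpy30, a core subunit gene of the MLL complexes, was lower at -1.08, and Kdm6a stood at 195 and 242 CPM (0.30, interval -0.24 to 0.87), with a UMI in every cell of both libraries.

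**Figure D5:**
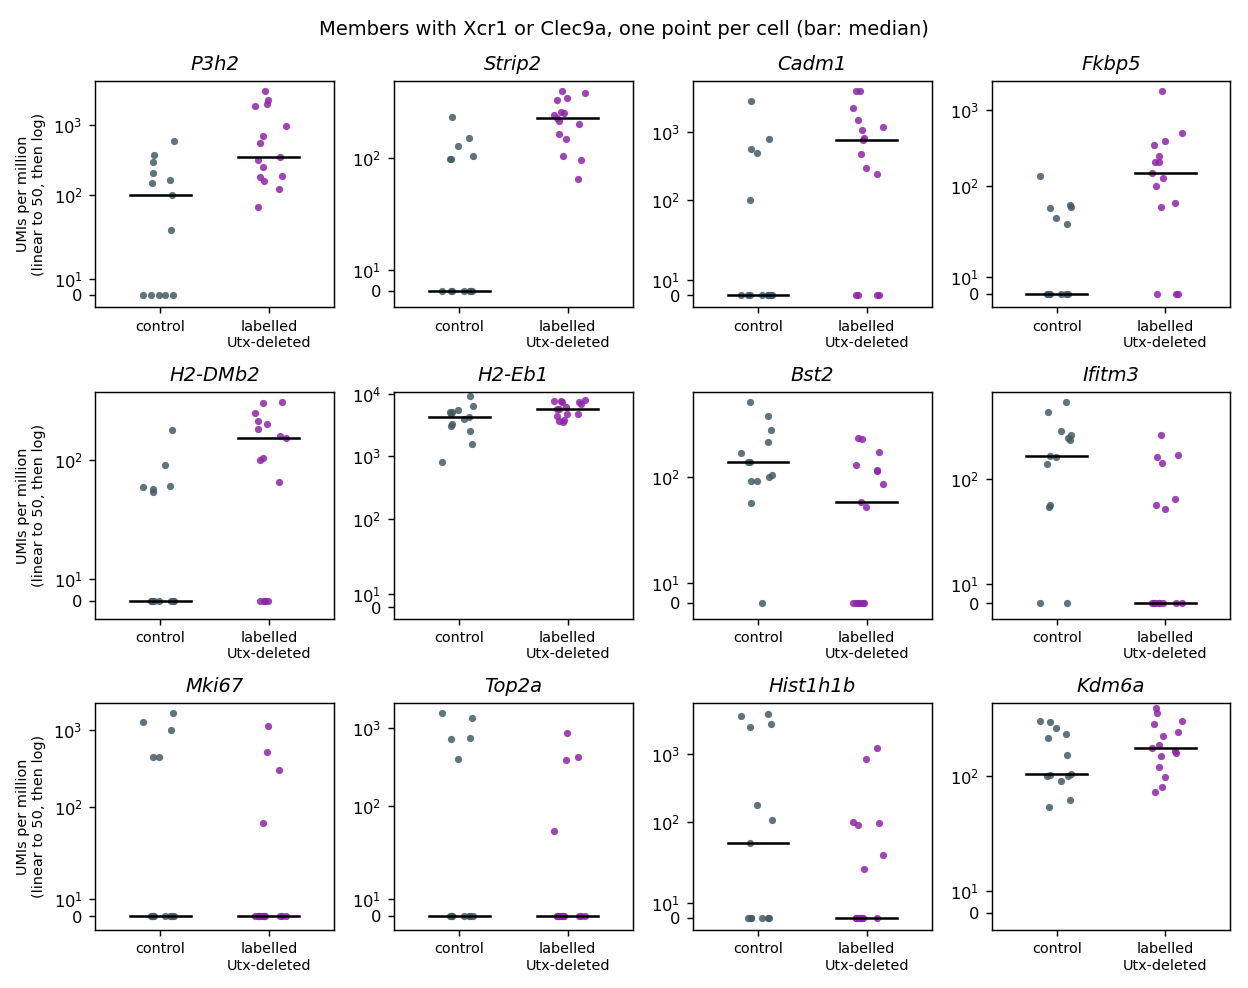
CPM per cell of 12 genes in the Xcr1 or Clec9a cells of the control library (13 cells) and of the Utx-labelled library (15 cells), with a bar at each median. P3h2 and Strip2 have a UMI in 15 of 15 cells of the Utx-labelled library and in 8 and 6 of 13 control cells, while Mki67, Top2a and Hist1h1b are carried by a few cells in each.

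For the 10 genes that the naming rule picked in Xcr1 or Clec9a cells, the sign was the same in each hashtag, which the rule requires. Among the 13 tags in these cells, 3 differed by at least 2-fold in median share of tag UMIs. CD11b was lower in the Utx-labelled library, at 3.66% and 0.537%, while CD201 (0.0952% and 0.287%, medians 2 and 12 UMIs) and CD127 (0.214% and 0.516%, medians 5 and 17 UMIs) were higher. The ranges overlapped for all 3. CD48, a SLAM family adhesion protein, had medians of 1671 and 2514 UMIs but shares of 84.8% and 85.7%, and CD16_32 had medians of 102 and 200 UMIs and shares of 4.52% and 5.77%. Over all H2-Aa cells, 1 of 13 tags differed by at least 2-fold in median share between libraries, CD11b, at 3.82% and 1.15%.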

How the data were processed

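The deposited matrices hold raw counts of UMIs per feature and barcode for 32285 genes and 15 antibody tags, per the file headers. Cell Ranger 7.1.0 and the build mm10 are named in the submitters' processing notes; how cells were called and the annotation are not given in the sources used here. Counts were read as deposited with Python 3.11.15, numpy 2.4.6, scipy 1.17.1 and pandas 2.3.3, and plotted with matplotlib 3.10.9. Barcodes with at least 500 genes and under 10% mitochondrial UMIs were kept, which left out 349 control barcodes and 214 of the other library. Barcodes with at least 100 UMIs of both hashtags within 5-fold of each other were dropped as doublets (380 and 699), and no doublet caller was run. The members and the gene lists were chosen with earlier results of these data known, and the subsets of H2-Aa cells after their values were seen.

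UMIs were summed over the cells of a subset and library and divided by the total gene UMIs (CPM). Genes with at least 20 UMIs (50 between libraries) were tested against a 2-fold limit with 1 UMI added to each sum, and the genes of the rule were left out. "Higher" and "lower" in a count mean past this limit. Where a sum was 0, the fold was set against 3 counts over the subset. Intervals are exact Poisson, Clopper-Pearson or conditional binomial, at 95%, and Newcombe intervals for differences of shares. They cover counting error only, and neither cells nor hashtags were taken as replicates.

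The genes named are list members, Kdm6a and the most extreme ratios: the 10 highest and 10 lowest between subsets, and the 5 highest and 5 lowest between libraries with the same sign in each hashtag, each detected in at least 5 cells. The rule for subsets asked for both libraries and was applied in the control library alone, since the other held no Siglech cell. For the same reason genes were not compared between libraries in Siglech cells. The ratio rule was tested on simulated counts. Alternatives were other cell filters, thresholds, hashtags, scaling (TMM), UMI minimums, a 1.5-fold limit, equal weight per cell and thinning to 2000 UMIs.
Promoter sequences and their build come from RefSeq tables, in which 14 of 18 symbols looked up were found.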

Additional observations from a re-analysis of the deposited data

How the results depend on the processing

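The difference in the share of all members stayed between -0.0145 and 0.136 percentage points over 9 alternatives. The difference in the Siglech share of members (-23.3 points) was -6.67 in hashtag 1 alone and -42.9 in hashtag 2 alone. Genes past 2-fold between Siglech and H2-Aa cells (1353) numbered 115 after thinning to 2000 UMIs, 870 and 885 in hashtags 1 and 2 alone, 562 with a minimum of 50 UMIs, 4865 with none and 2425 at 1.5-fold. Between libraries in H2-Aa cells (204) they numbered 18 after thinning, 132 in hashtag 1 alone, 62 with a minimum of 100 UMIs, 3359 with none and 763 at 1.5-fold. With raw tag UMIs 3 tags in place of 1 differed between libraries. Angpt1 reversed, to -0.0010 with thresholds of 2 Siglech or 3 H2-Aa UMIs, -3.49 after thinning and -0.75 in Xcr1 or Clec9a cells alone; the first and last of these change which cells are compared, and the cause after thinning was not tested. Of 480 ratios of named genes under alternatives, 415 moved by less than their counting error, 62 moved further and 3 reversed. Leaving out the cell with most UMIs of a gene, also chosen after the data were seen, kept the direction of the 10 genes named in H2-Aa cells between libraries and left them past 2-fold, though Plxdc2, Cd200r1 and Kif15 came under the UMI minimum; in Xcr1 or Clec9a cells the same held for the 10 genes named, with H2-DMb2, Dctpp1 and Hist1h4d under it. Thinning left out 160 and 79 shallower cells. Alternatives added after the data were seen gave 1154 genes with the rest limited to Xcr1 or Clec9a cells, 1847 with the rest of the Utx-labelled library, 1327 without the Siglech cell of hashtag 1, and, between libraries, 204 without progenitor-marker cells and 158 in Xcr1 or Clec9a cells. TMM changed the sign of small ratios, between libraries those of Lyz2, Cst3, Mef2c and Edem1, and took Ctsz below 2-fold. It also put 1 secretory gene and 1 cell cycle gene past 2-fold as higher in the Utx-labelled library. The alternatives planned for Siglech cells between libraries were not run, since 1 library holds none. No paired analysis was possible because each label has 1 library and the labels carry no replicate numbers. With 3 to 33 cells per subset, and 5 control Cd209a cells, genes of few UMIs could not be measured.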
